A study of Mus musculus with 6 samples.

Results

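The presynaptic vesicle release machinery was described here through 30 genes for synaptic vesicle proteins, SNAREs with their regulators, and active zone scaffolds, chosen by gene name from the 31838 genes of the deposited table. All 30 were found, and all 30 passed the filter on low counts that kept 20428 genes for testing. The RNA came from the hippocampus of wild-type C57BL/6 mice at an age of 4 months. The BBP group held 3 libraries from mice dosed with 50 mg/kg/day of BBP (butyl benzyl phthalate, used to soften plastics), and the control group held 3 libraries from mice given corn oil. The route and length of dosing are not given in the labels, and neither is whether a library stands for 1 animal. Every p-value below is therefore set by how far libraries of a group differ, which may be technical.

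At a presynaptic terminal, vesicles filled with transmitter are tethered by synapsins and Rab3 proteins, docked at an active zone built on large scaffold proteins, and primed for fusion. Fusion is driven by a SNARE complex of a vesicle protein (VAMP) with a pair of plasma membrane proteins (syntaxin and SNAP25), clamped and assisted by complexins, and triggered when a synaptotagmin binds calcium. NSF and its SNAP adaptors then take the spent SNARE complexes apart, and in the hippocampus most terminals of this kind are glutamatergic and carry the transporter VGLUT1.

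The deposited estimated counts summed to 62477604 to 67270275 in the BBP libraries and to 62747522 to 68422361 in the corn oil libraries. Counts per library ran from 176 to 358 for Syn3 and were at least 1292 for every other member, so counting error weighs most on Syn3. Several libraries stood apart in lists outside the release machinery. BBP library 1 had a summed level of 15 striatum markers of 209 FPKM (fragments scaled to exon length and library size), against 49.5 to 54.2 FPKM in the other BBP libraries and 50.3 to 95.7 FPKM in corn oil, and its dentate granule neuron markers summed to 34.0 FPKM, against 67.1 to 75.1 FPKM in the other BBP libraries and 44.7 to 68.0 FPKM in corn oil. BBP library 2 had 11.5% of its counts on the mitochondrial genome, against 7.17% to 7.79% in the other BBP libraries and 7.11% to 8.57% in corn oil. BBP library 3 had 19 of 20 cytosolic ribosomal protein genes below the corn oil range and 5 of 5 erythrocyte markers above it. Choroid plexus markers summed to 50.7 to 64.0 FPKM in BBP and to 86.9, 121.6 and 375.8 FPKM in corn oil, highest in corn oil library 3. Ttr alone made up most of these sums, at 44.5 to 58.5 FPKM in BBP and 81.4, 115 and 366 FPKM in corn oil. Log2 library-scaled counts minus the corn oil mean had list medians of -0.95 to -0.12 in BBP and -0.53 to 0.67 in corn oil. By these medians the groups overlapped. Markers of hippocampal granule and pyramidal neurons were detected in every library, as the labelled tissue would have.

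No member passed the comparison of BBP with corn oil. Of the 30 genes, 0 reached an adjusted p under 0.05 in edgeR's quasi-likelihood test, as did 0 of all genes tested (0.0%), and the smallest adjusted p of any gene was 0.953. At an unadjusted p under 0.05 there were also 0 members, against 3.35% of all genes tested, and DESeq2 called 3 of all genes at an adjusted p under 0.05, none of them a member. The log2 fold changes of the members, BBP over corn oil, ran from -0.22 to 0.43 with a median of 0.07 and a median standard error of 0.11, beside a median of 0.01 over all genes. In 19 of 30 members the fold change was positive, against 52.4% of all genes. The 95% interval of the fold change lay inside 1.5-fold in either direction for 25 of the 30 members and inside 2-fold for 28, whereas it lay inside 1.5-fold for 10301 of all 20428 genes. Fewer terminals or neurons of a type and less RNA per cell cannot be told apart in tissue RNA.

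**Figure D1:**
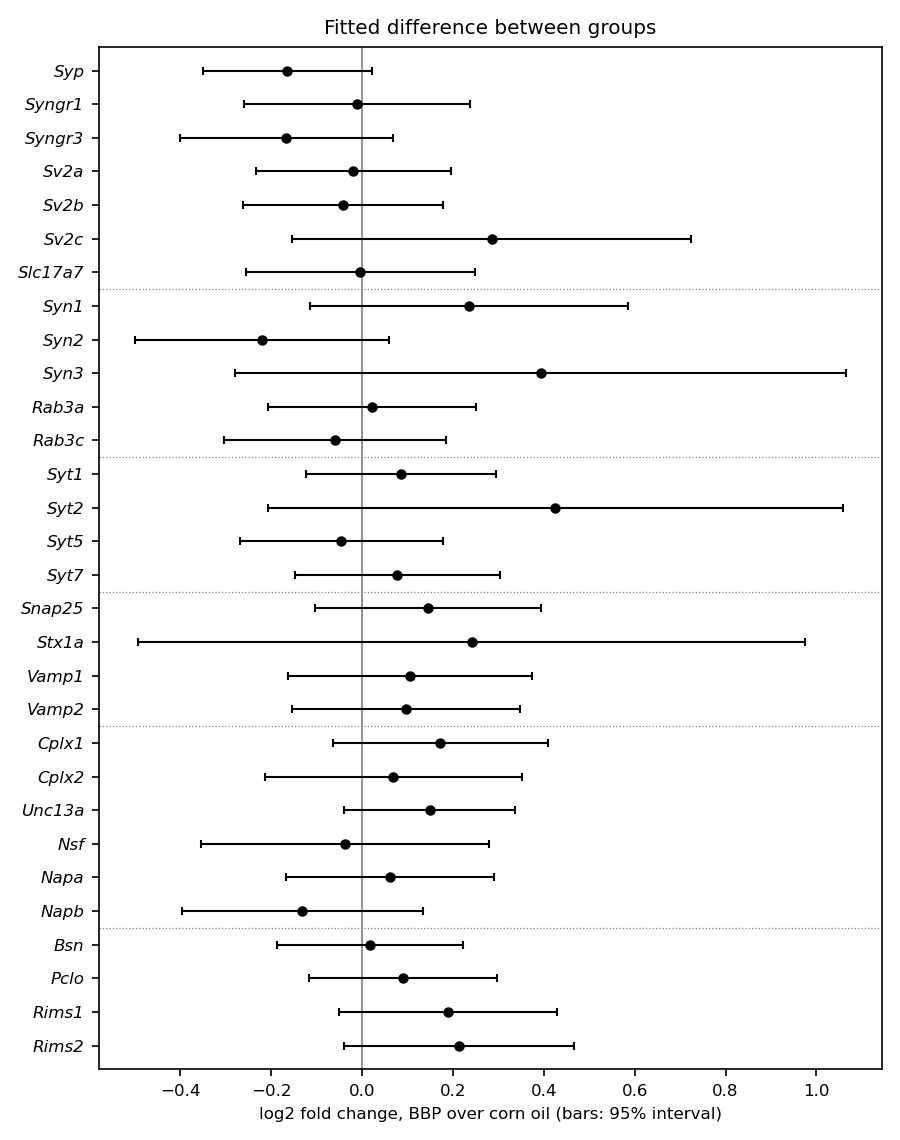
Log2 fold change of each of the 30 genes, BBP over corn oil, on the horizontal axis, with the edgeR estimate as a point and its 95% interval as a bar, and dotted lines between the 6 roles. Every interval crosses 0, and the widest belong to Stx1a, Syn3 and Syt2.

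The groups did not overlap for 2 members on the FPKM scale, against 9.65% of all genes tested. These were Syp, below as in 5.25% of all genes, and Unc13a, above as in 4.4%. On TMM-normalized log2 CPM (library-scaled counts on a log scale, a comparison added after the data were seen) they did so for 3 members, against 10.4% of all genes. There Syp and, by a small margin, Syngr3 were below, as in 5.32% of all genes, and Unc13a above, as in 5.1%. Both counts of members are near the background.

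Promoters of 300 bases, 250 before the start site and 50 from it on, were available from RefSeq (GRCm38.p6) for 23 of the 30 members, as 30 promoters. They were searched on both strands for the RE1 motif, which the neuronal repressor REST binds, with up to 4 mismatches to its consensus, and for the cAMP response element, TGACGTCA. The RE1 motif was found in the promoter of 1 member, Syn1, and in 0.228% of all 32841 promoters. The cAMP response element was found in 2 member promoters, those of Napa and Syn1, and in 1.79% of all. The shorter string TGACG, which lies inside the cAMP response element and was added after the data were seen, was found in 7 of 30 member promoters and in 20.8% of all. The median GC content was 63.0% over member promoters and 52.7% over all. The 4 promoters shown were picked because the values of their genes are described in most detail, namely Syn1 (chrX:20920869-20921168, minus strand), Stx1a (chr5:135023232-135023531, plus strand), Syt2 (chr1:134646362-134646661, plus strand, 1 of its 2 RefSeq promoters) and Syp (chrX:7638330-7638629, plus strand). Capitals mark the RE1 match and then the cAMP response element in Syn1 and the string TGACG in Stx1a and Syt2, and Syp held no match.
Syn1: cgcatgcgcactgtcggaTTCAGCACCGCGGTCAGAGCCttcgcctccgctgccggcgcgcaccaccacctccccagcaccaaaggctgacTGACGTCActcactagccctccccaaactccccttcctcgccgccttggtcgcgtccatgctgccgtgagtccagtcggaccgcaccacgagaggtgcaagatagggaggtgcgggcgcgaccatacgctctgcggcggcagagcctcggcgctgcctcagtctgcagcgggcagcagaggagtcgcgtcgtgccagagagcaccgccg
Stx1a: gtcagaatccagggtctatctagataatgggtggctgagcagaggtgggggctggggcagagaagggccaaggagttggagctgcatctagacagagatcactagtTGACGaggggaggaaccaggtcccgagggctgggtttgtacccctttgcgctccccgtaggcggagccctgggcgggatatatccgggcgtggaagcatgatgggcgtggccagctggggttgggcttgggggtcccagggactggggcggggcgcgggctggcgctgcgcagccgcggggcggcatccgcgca
Syt2: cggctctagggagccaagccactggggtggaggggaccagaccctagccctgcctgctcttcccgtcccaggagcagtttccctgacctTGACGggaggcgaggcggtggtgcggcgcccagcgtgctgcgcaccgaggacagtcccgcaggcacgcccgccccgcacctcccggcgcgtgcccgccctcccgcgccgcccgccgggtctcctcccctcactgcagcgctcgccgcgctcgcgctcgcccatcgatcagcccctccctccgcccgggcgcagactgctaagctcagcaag
Syp: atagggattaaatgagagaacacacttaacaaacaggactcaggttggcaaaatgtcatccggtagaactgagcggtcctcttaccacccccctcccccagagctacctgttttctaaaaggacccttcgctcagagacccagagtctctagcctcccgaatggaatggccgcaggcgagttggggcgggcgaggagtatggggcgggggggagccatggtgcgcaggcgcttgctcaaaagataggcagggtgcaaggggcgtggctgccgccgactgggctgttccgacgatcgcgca
In Syn1 the RE1 match began at position -232 from the start site with 2 mismatches, and the cAMP response element at position -159. The string TGACG began at position -144 in Stx1a and at position -161 in Syt2. A match of letters is a description and not a site of binding, and the absence of one says only that these letters are not in this window.

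Among the 7 vesicle membrane proteins, 6 had a fold change below 0 and 1 above, and none passed the test. Of the 6, Slc17a7, Syngr1 and Sv2a were close to 0, at -0.004, -0.011 and -0.019 on the log2 scale. These genes and Sv2b changed sign when some single library was left out. Syp encodes synaptophysin, a major protein of the vesicle membrane, and lies at chrX:7638471-7653256. It had 238, 222 and 251.1 FPKM in the BBP libraries and 269.9, 261 and 278 FPKM in the corn oil libraries. All 3 BBP values were under the lowest corn oil value, and the mean was 237 ± 14.4 FPKM in BBP and 269.6 ± 8.95 FPKM in corn oil (SD, n = 3 each). The log2 fold change of Syp was -0.16 ± 0.08 (SE), with an adjusted p of 0.953 in edgeR's test and an unadjusted p of 0.0772. Leaving out any 1 library kept it between -0.19 and -0.14. An antisense transcript, Gm14703, overlaps 16.8% of the exonic bases of Syp and had 1.37, 1.99 and 1.69 FPKM in BBP and 1.28, 1.68 and 1.55 FPKM in corn oil. Reads of the overlap cannot be told apart, since the sources used here do not state whether counting used strand.

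Syngr3 and Syngr1 encode synaptogyrins, tetraspan relatives of synaptophysin. Syngr3 (chr17:24685092-24689955) had 74.3, 56.0 and 74.4 FPKM in BBP and 76.7, 74.1 and 81.5 FPKM in corn oil. BBP library 2 was far below the others, and the BBP and corn oil values met at about 74 FPKM. On log2 CPM the groups were barely apart, at -0.065 in BBP library 1 and -0.059 in corn oil library 2 from the corn oil mean. The log2 fold change was -0.17 ± 0.10 (SE), with an adjusted p of 0.953 in edgeR's test, and it was -0.07 without BBP library 2. Syngr1 had 92.6, 65.7 and 86.4 FPKM in BBP against 82.5, 82.6 and 84.3 FPKM in corn oil, so the BBP values lay on both sides of a tight corn oil group.

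Sv2a, Sv2b and Sv2c encode the SV2 vesicle glycoproteins, and Sv2a is the binding target of the antiepileptic drug levetiracetam. Sv2a had 79.6, 61.3 and 77.3 FPKM in BBP and 75.3, 74.8 and 73.7 FPKM in corn oil. Sv2c (chr13:95954594-96132577), best known from the basal ganglia, had 3.27, 2.77 and 2.01 FPKM in BBP and 1.89, 2.44 and 2.39 FPKM in corn oil. BBP libraries 1 and 2 were the highest and BBP library 3 lay inside the corn oil range. Its log2 fold change was 0.29 ± 0.19 (SE), with an adjusted p of 0.953 in edgeR's test, and it was 0.14 without BBP library 1, 0.18 without corn oil library 1 and 0.47 without BBP library 3 (unadjusted p = 0.0117 and adjusted p = 0.624 in that edgeR fit). Sv2b ranged over 41.0 to 50.7 FPKM in BBP and 44.0 to 48.5 FPKM in corn oil. Slc17a7, which encodes the vesicular glutamate transporter VGLUT1, had 209.9, 250.9 and 239 FPKM in BBP and 248, 234 and 233 FPKM in corn oil, with a log2 fold change of 0.00 ± 0.11 (SE).

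**Figure D2:**
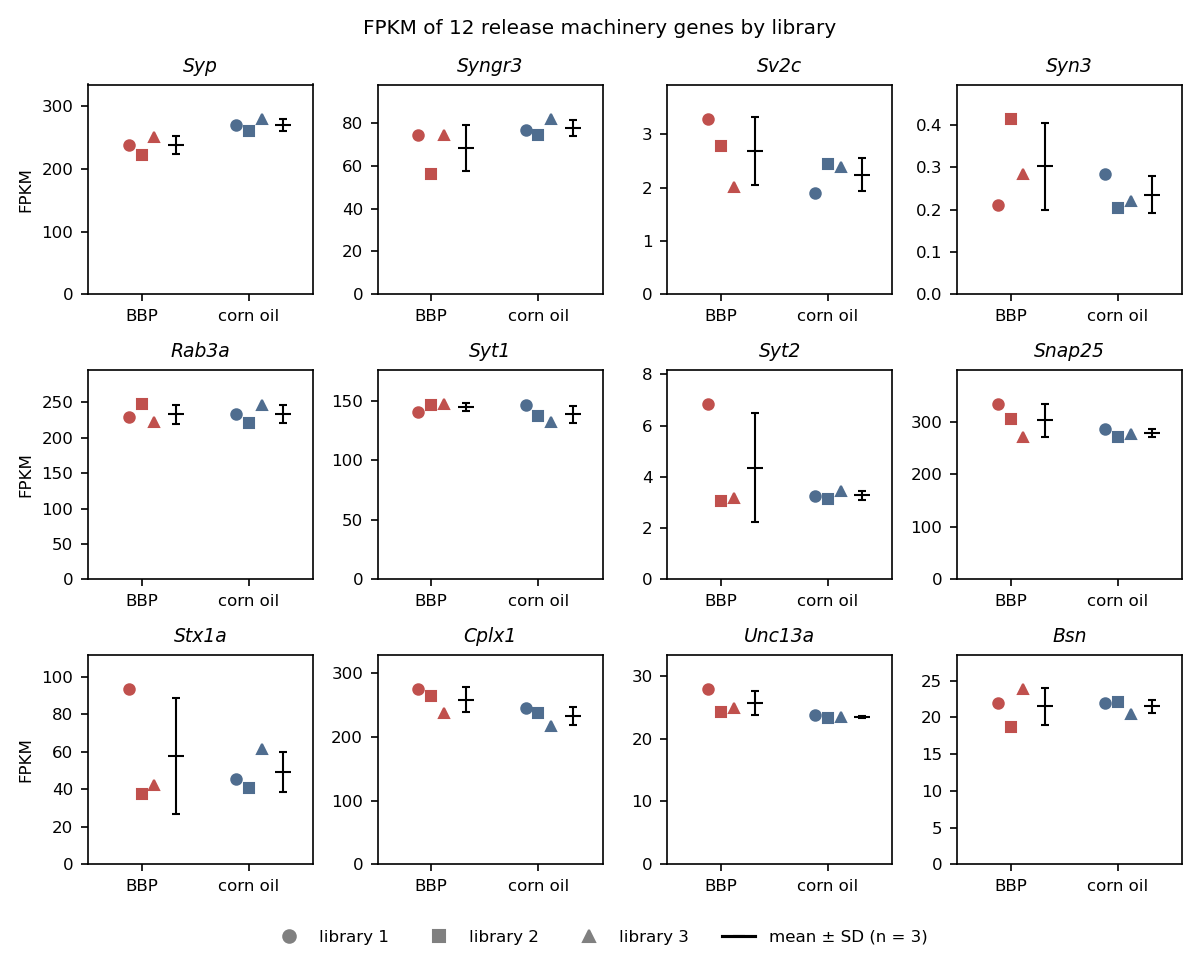
FPKM on the vertical axis for 12 of the genes, with the BBP libraries in red on the left and the corn oil libraries in blue on the right, a marker shape for each library number, and the mean ± SD (n = 3) in black. Syp lies lower and Unc13a higher in all 3 BBP libraries, and the high points of Syt2 and Stx1a are both BBP library 1.

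The 3 synapsins, phosphoproteins that hold the reserve pool of vesicles, did not depart together. Syn1 had 175, 236 and 173 FPKM in BBP and 174, 163 and 169.8 FPKM in corn oil. BBP library 2 alone was high, the groups overlapped, and the log2 fold change of 0.24 ± 0.15 (SE) was 0.03 without BBP library 2. Syn2 had 68.7, 78.4 and 95.9 FPKM in BBP and 98.7, 93.5 and 95.2 FPKM in corn oil. BBP libraries 1 and 2 were below all corn oil libraries and BBP library 3 was among them, which gave the lowest fold change of any member, -0.22 ± 0.12 (SE) on the log2 scale with an adjusted p of 0.953 in edgeR's test. Without BBP library 1 that value was -0.10 (unadjusted p = 0.285), and without BBP library 3 it was -0.33 (unadjusted p = 0.0224, adjusted p = 0.638 in edgeR). Syn1 and Syn2 are described in full because of these values and were chosen after they were seen.

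Syn3 (chr10:86055125-86498896) was the scarcest member, at 0.211, 0.413 and 0.284 FPKM in BBP and 0.285, 0.203 and 0.220 FPKM in corn oil. BBP library 2 was the highest and BBP library 1 was within the corn oil range. The log2 fold change was 0.39 ± 0.29 (SE), with an adjusted p of 0.953 in edgeR's test. It was 0.61 without BBP library 1 (unadjusted p = 0.0479, adjusted p = 0.7) and 0.05 without BBP library 2. Timp3, a protease inhibitor gene on the opposite strand, shares 14.1% of the exonic bases of Syn3 and was far more abundant, at 8.69 to 11.5 FPKM in BBP and 8.26 to 9.42 FPKM in corn oil, so the reads given to Syn3 are uncertain.

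Rab3a, the vesicle GTPase that recruits RIM proteins, had 229, 247 and 222 FPKM in BBP and 233, 221 and 246 FPKM in corn oil. The groups covered the same span, with means of 233 ± 12.8 FPKM in BBP and 233 ± 12.9 FPKM in corn oil (SD, n = 3 each). Its log2 fold change was 0.02 ± 0.10 (SE) in edgeR and -0.004 in the fits on FPKM. Rab3c, a close relative, had 23.9, 23.7 and 31.2 FPKM in BBP and 27.8, 27.5 and 27.9 FPKM in corn oil, with the BBP values on both sides of a tight corn oil group.

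Of the 4 synaptotagmin genes, Syt1 and Syt2 encode fast calcium sensors of release, Syt7 a slow sensor of high affinity and Syt5 a relative on vesicles. None passed the test. Syt1 (chr10:108497650-109010982) was the most abundant, at 140.5, 146 and 147 FPKM in BBP and 146, 137 and 132 FPKM in corn oil. The groups overlapped, and the log2 fold change was 0.09 ± 0.09 (SE) with an adjusted p of 0.953 in edgeR's test, within 0.04 to 0.13 as libraries were left out, at 0.04 without BBP library 2, 0.05 without corn oil library 3 and 0.13 without corn oil library 1. Syt2 (chr1:134646677-134762593), the fast sensor of hindbrain synapses and of parvalbumin interneurons, had 6.83, 3.07 and 3.19 FPKM in BBP and 3.24, 3.14 and 3.47 FPKM in corn oil. The value of BBP library 1 stood alone, and the other BBP libraries were below or inside the corn oil range. Its log2 fold change of 0.43 ± 0.28 (SE), the highest of any member, had an adjusted p of 0.953 in edgeR's test and was -0.03 without BBP library 1. The 12 interneuron markers had a median deviation of 0.06 on the log2 CPM scale in that library, with 6 above the corn oil range and 3 below it. Among them Pvalb, which encodes parvalbumin, had 47.2, 23.6 and 23.0 FPKM in BBP and 28.0 to 31.1 FPKM in corn oil. The most abundant markers of that list, Sst and Cck, were inside the corn oil range of FPKM in BBP library 1. The part of interneurons in the Syt2 value was not tested. Syt5 ranged over 53.4 to 61.5 FPKM in BBP and 57.0 to 65.5 FPKM in corn oil, and Syt7 over 40.04 to 46.5 FPKM in BBP and 40.9 to 44.0 FPKM in corn oil.

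The 4 SNARE genes all had a fold change above 0, and none passed the test. Snap25 (chr2:136713453-136782428) had the highest mean FPKM of the 30 members, 290.5 FPKM over the 6 libraries, with 333, 305 and 271 FPKM in BBP and 286, 272 and 277 FPKM in corn oil. BBP libraries 1 and 2 were above all corn oil libraries and BBP library 3 was below all of them. The log2 fold change was 0.15 ± 0.11 (SE), with an adjusted p of 0.953 in edgeR's test, 0.09 without BBP library 1 and 0.24 without BBP library 3 (unadjusted p = 0.0267, adjusted p = 0.654 in that edgeR fit). Stx1a (chr5:135023482-135051100), which encodes syntaxin 1A, had 93.1, 37.5 and 42.1 FPKM in BBP and 45.4, 40.8 and 61.3 FPKM in corn oil. BBP library 1 was the highest and corn oil library 3 the next, while the other BBP libraries were at or near the bottom. The log2 fold change of 0.24 ± 0.32 (SE), with an adjusted p of 0.954 in edgeR's test, was -0.27 without BBP library 1, so 1 library set its direction. Vamp2, the main vesicle SNARE of the forebrain, had 279, 320.4 and 275 FPKM in BBP and 279.8, 272.5 and 281 FPKM in corn oil. Vamp1, its relative, had 16.5, 12.6 and 12.6 FPKM in BBP and 12.7, 14.0 and 12.5 FPKM in corn oil. In both genes a single BBP library was high, library 2 for Vamp2 and library 1 for Vamp1, and without it the fold changes were close to 0 at -0.02 each.

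Among the 6 regulators of the SNARE complex, 4 had a fold change above 0 and 2 below, and none passed the test. Cplx1 (chr5:108518554-108550024), which encodes complexin 1, had 274, 264 and 237 FPKM in BBP and 245, 237 and 217 FPKM in corn oil. BBP libraries 1 and 2 were above every corn oil library and BBP library 3 was inside the corn oil range, and the log2 fold change was 0.17 ± 0.10 (SE) with an adjusted p of 0.953 in edgeR's test. It was 0.12 without BBP library 2 and 0.25 without BBP library 3. Cplx2 ranged over 194 to 244 FPKM in BBP and 201 to 225 FPKM in corn oil. Unc13a (chr8:71624417-71671757) encodes Munc13-1, which primes vesicles by opening syntaxin. It had 27.8, 24.2 and 24.8 FPKM in BBP and 23.7, 23.3 and 23.4 FPKM in corn oil. All 3 BBP values were above the highest corn oil value, and the means were 25.6 ± 1.903 FPKM in BBP and 23.5 ± 0.187 FPKM in corn oil (SD, n = 3 each). The log2 fold change was 0.15 ± 0.08 (SE), with an adjusted p of 0.953 in edgeR's test, and it ranged from 0.10 to 0.19 as libraries were left out in turn. Colgalt1, on the opposite strand, shares 3.92% of the exonic bases of Unc13a and had 10.9, 11.3 and 13.9 FPKM in BBP and 12.1, 11.5 and 13.1 FPKM in corn oil.

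Nsf, the ATPase that takes SNARE complexes apart, had 85.5, 110.5 and 119 FPKM in BBP and 115, 112 and 101 FPKM in corn oil. BBP library 1 was the lowest, and the log2 fold change was -0.04 ± 0.14 (SE). Its adaptors Napa and Napb, which encode alpha-SNAP and beta-SNAP, differed from each other in BBP library 2. There Napa was at 65.7 FPKM, above the 58.7 to 59.8 FPKM of corn oil, and Napb at 38.5 FPKM, below the 46.7 to 52.8 FPKM of corn oil. Over the BBP group Napa ranged from 58.1 to 65.7 FPKM and Napb from 38.5 to 52.7 FPKM, and neither log2 fold change, 0.06 ± 0.10 for Napa and -0.13 ± 0.11 for Napb (SE), passed edgeR's test. With BBP library 3 left out the value of Napb was -0.25, with corn oil library 1 or BBP library 1 left out it was -0.07 and with BBP library 2 left out -0.08, while that of Napa ranged from -0.04 to 0.12.

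The 4 active zone scaffold genes had fold changes above 0 in edgeR, although Bsn was at -0.006 in the fits on FPKM, and none passed the test. Bsn (chr9:108096022-108190384) encodes bassoon, and it had 21.9, 18.7 and 23.8 FPKM in BBP and 21.9, 22.1 and 20.5 FPKM in corn oil. Its mean was 21.5 FPKM in both groups, with an SD of 2.55 FPKM in BBP and 0.856 FPKM in corn oil. Pclo encodes piccolo, the partner scaffold of bassoon, and had 7.74, 8.51 and 8.87 FPKM in BBP and 8.03, 8.23 and 7.72 FPKM in corn oil. Rims1, which encodes RIM1, the link between Rab3, Munc13 and calcium channels, had 22.0, 16.3 and 18.5 FPKM in BBP and 16.2, 16.5 and 17.9 FPKM in corn oil. Rims2 had 7.25, 5.41 and 6.10 FPKM in BBP and 5.44, 5.01 and 5.94 FPKM in corn oil. In both RIM genes BBP library 1 was the highest and the groups overlapped, with log2 fold changes of 0.19 ± 0.10 for Rims1 and 0.21 ± 0.11 for Rims2 (SE). Each had an adjusted p of 0.953 in edgeR's test, and without BBP library 2 the unadjusted p was 0.0354 for Rims1 and 0.0395 for Rims2 (adjusted p = 0.981 for each). Without BBP library 1 the log2 fold changes were 0.08 for Rims1 and 0.11 for Rims2, with unadjusted p = 0.343 and 0.279 in that edgeR fit. On log2 CPM all 4 scaffold genes were above the corn oil range in BBP library 3, where 27.4% of all genes were.

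The spread inside the BBP group was wider than inside the corn oil group. For 29 of the 30 members the SD of log2 CPM was larger in BBP, against 71.0% of all genes tested. The same held for 71 of the 84 other release and recycling genes described below (84.5%), so it was not particular to the members. The median SD was 0.175 in BBP and 0.0667 in corn oil for the members, beside 0.243 in BBP and 0.144 in corn oil for all genes. The BBP libraries lay outside the corn oil range in both directions. Library 1 was above it for 12 members and below it for 11, against 31.3% above and 30.5% below over all genes. Library 2 was above it for 15 and below it for 9, against 34.0% and 33.6%, and library 3 was above it for 11 and below it for 9, against 27.4% and 26.5%. The median deviation of the members from the corn oil mean was 0.01, 0.10 and 0.02 in BBP libraries 1 to 3 on the log2 CPM scale, and the summed FPKM of the 30 genes was 2927 to 3007 in BBP and 2864 to 2985 in corn oil. Single genes departed in both directions, while the summed level of the list spanned a narrow range.

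**Figure D3:**
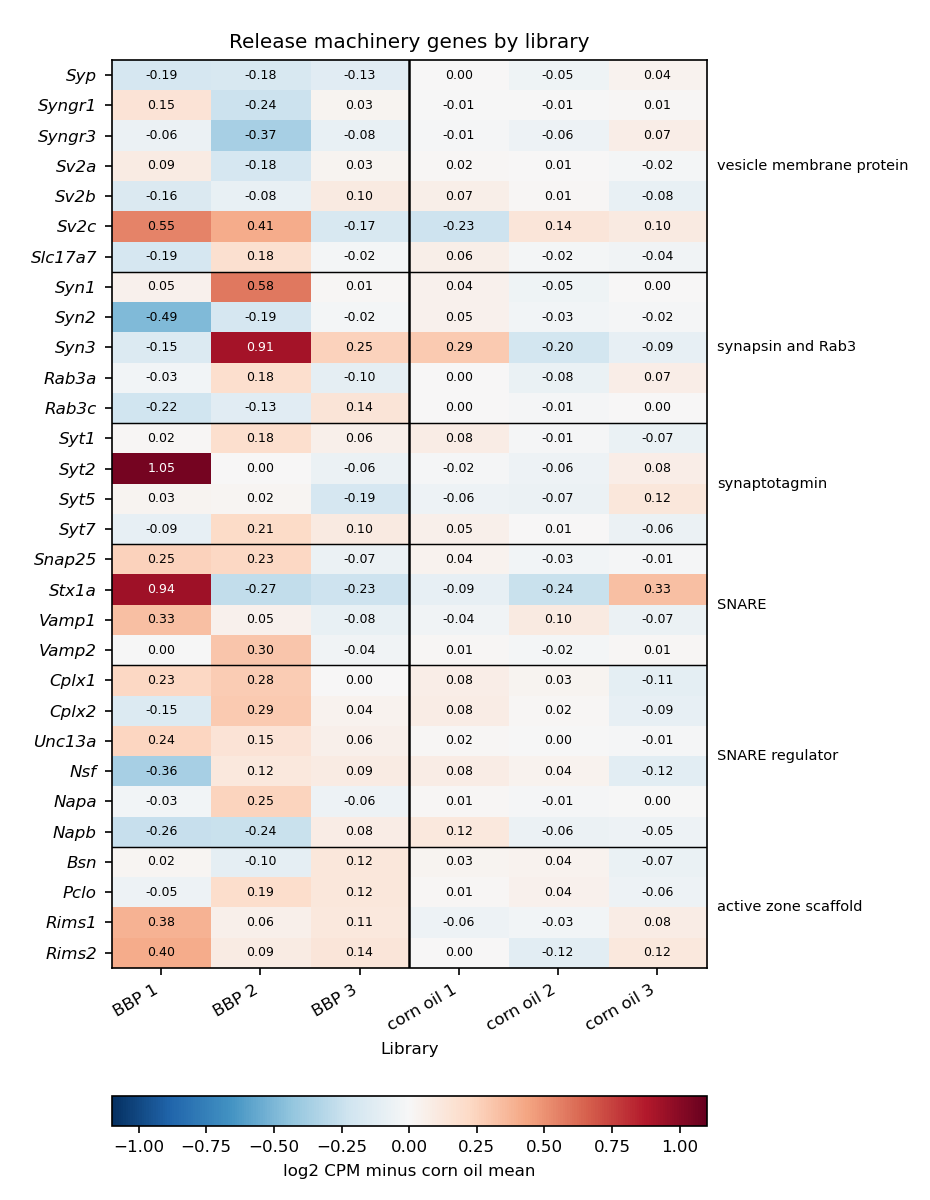
Log2 CPM minus the corn oil mean for each of the 30 genes (rows, grouped by role) in each library (columns, BBP on the left, corn oil on the right), with the value printed in each cell. Red is higher and blue lower than the corn oil mean, and the strongest cells are Syt2 (1.05) and Stx1a (0.94) in BBP library 1 and Syn3 (0.91) in BBP library 2.

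In BBP library 1 the members with the largest deviations were Syt2 at 1.05, Stx1a at 0.94 and Sv2c at 0.55 above the corn oil mean on the log2 CPM scale, then Syn2 at -0.49, Rims2 at 0.41, Rims1 at 0.38 and Nsf at -0.36. In that library all 15 striatum markers and 11 of 13 isocortex markers were above the corn oil range, and 7 of 8 dentate granule neuron markers and 8 of 10 markers of CA2 and CA3 neurons were below it. The striatum markers summed to 49.5 to 209 FPKM in BBP and 50.3 to 95.7 FPKM in corn oil, and the isocortex markers to 98.8 to 184 FPKM in BBP and 93.7 to 106.5 FPKM in corn oil. No marker of either list was at 0 in every library, and Isl1 and Serpina9 of the striatum list averaged under 0.1 FPKM. Corn oil library 3, the next highest in Stx1a, was also the next highest in both lists. The 14 pan-neuronal markers outside the synapse had a median of -0.01 in BBP library 1. The part of the regional markers in the Stx1a and Syt2 values was not tested.

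In BBP library 2 the members above the corn oil mean included Syn3 at 0.91, Syn1 at 0.58 and Vamp2 at 0.30 on the log2 CPM scale, and those below included Syngr3 at -0.37, Stx1a at -0.27, Syngr1 at -0.24 and Napb at -0.24. There 18 of 20 cytosolic ribosomal protein genes were below the corn oil range, as were 19 of 20 in BBP library 3, and 12 of 13 mitochondrial mRNAs were above it in BBP library 2. Summed levels of the ribosomal genes were 2324, 1517 and 2106 FPKM in BBP and 2336, 2320 and 2391 FPKM in corn oil. Their median deviation was 0.0, -0.64 and -0.20 in BBP libraries 1 to 3, so the shift was in libraries 2 and 3 and larger in library 2. The sums of the mitochondrial mRNAs were 61020 to 99720 FPKM in BBP and 59230 to 72610 FPKM in corn oil. Myelin markers were above the corn oil range for 12 of 13 genes in BBP library 2 and for 11 of 13 in BBP library 1. The part of these shifts in the values of the members was not tested.

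**Figure D4:**
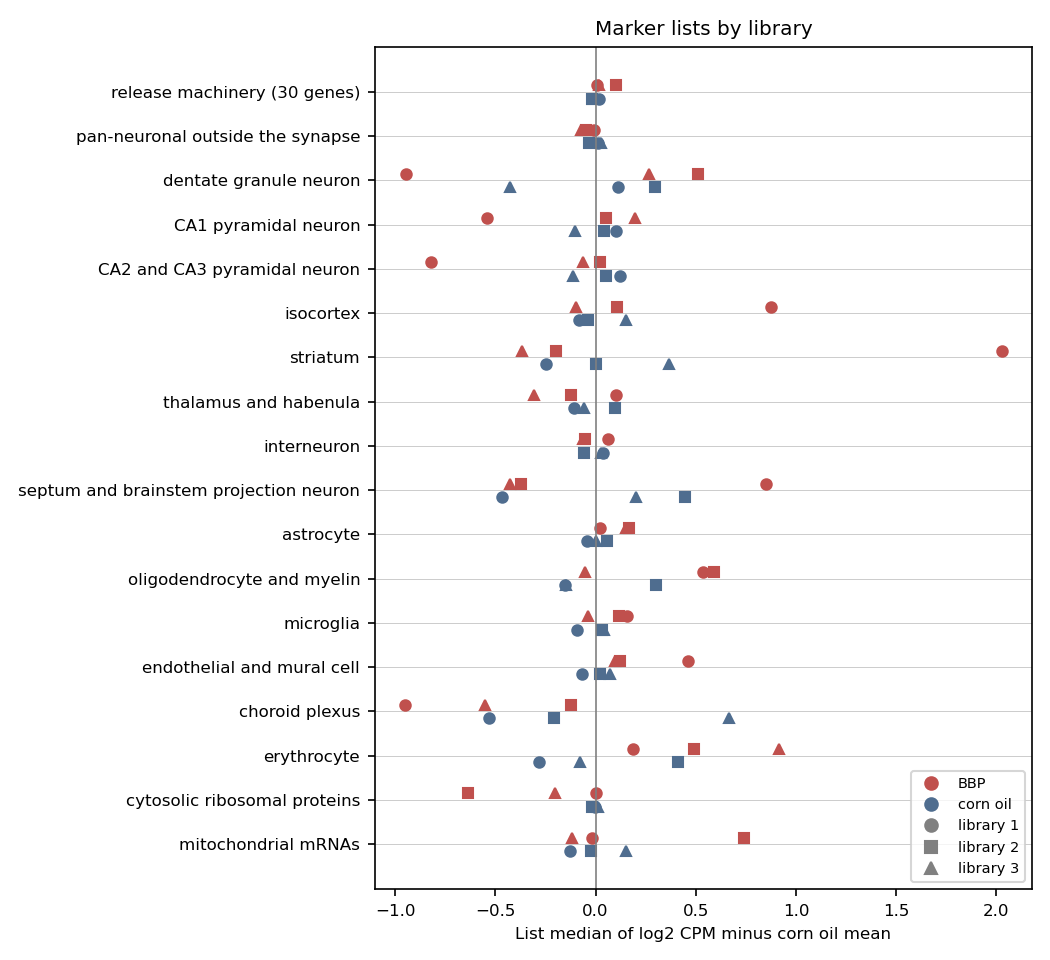
Median over each list of log2 CPM minus the corn oil mean (horizontal axis) for the 30 genes and for marker and RNA quality lists (rows), with BBP libraries in red above the line and corn oil libraries in blue below it, and a marker shape for each library number. The 30 genes stay between -0.02 and 0.10 in every library, while the striatum list reaches 2.03 in BBP library 1 and the mitochondrial mRNAs 0.74 in BBP library 2.

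In BBP library 3 the deviation of the members went with exonic length. Across the 30 genes, the log2 of the exonic length and the log2 CPM deviation had a Pearson r of 0.618 and a Spearman rho of 0.646, against r = 0.0911 and rho = 0.183 across 20400 genes tested. The genes share a library and are not independent, so these are descriptions. In the other BBP libraries the Pearson r over members was -0.0647 and 0.142, and in the corn oil libraries it was 0.144, 0.311 and -0.377. The 15 members with exons of at most 7041 bases had a median deviation of -0.04 in BBP library 3 and the 15 longer ones 0.10. In BBP library 2 the order was the other way, at 0.175 for the shorter and 0.089 for the longer members. In BBP library 1 the medians were -0.001 and 0.016. The scaffold genes Pclo, with 22457 exonic bases, and Bsn, with 15938, are the longest of the list and Syngr3, with 2071, the shortest.

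Shares within gene families compare paralogs per length inside a library. Of the summed FPKM of the 3 synapsins, Syn1 made up 71.8%, 74.9% and 64.3% in BBP and 63.7%, 63.5% and 64.0% in corn oil. All 3 BBP shares were above the corn oil shares, and the means were 70.3 ± 5.47% in BBP and 63.8 ± 0.255% in corn oil (SD, n = 3 each). The difference of 6.57 percentage points had a two-sided exact permutation p of 0.1, the smallest that 3 against 3 libraries allow, and an adjusted p of 0.6 over the 24 shares computed. It ranged from 4.28 to 9.59 points as libraries were left out in turn. BBP library 1 reached its share through a low Syn2 and BBP library 2 mainly through a high Syn1, as the FPKM values above show.

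Syngr1 made up 55.5%, 54.0% and 53.7% of the synaptogyrin pair in BBP and 51.8%, 52.7% and 50.8% in corn oil. The groups did not overlap, and the difference was 2.62 points (two-sided exact permutation p = 0.1, adjusted p = 0.6), within 2.08 to 3.07 points as libraries were left out. The other 8 families had leading shares that overlapped between groups. Vamp2 made up 94.4% to 96.2% of the VAMP pair in BBP and 95.1% to 95.7% in corn oil, and Rims1 75.1% to 75.2% of the RIM pair in BBP and 74.8% to 76.7% in corn oil. Napa made up 52.4% to 63.1% of the SNAP adaptor pair in BBP and 53.1% to 55.7% in corn oil.

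**Figure D5:**
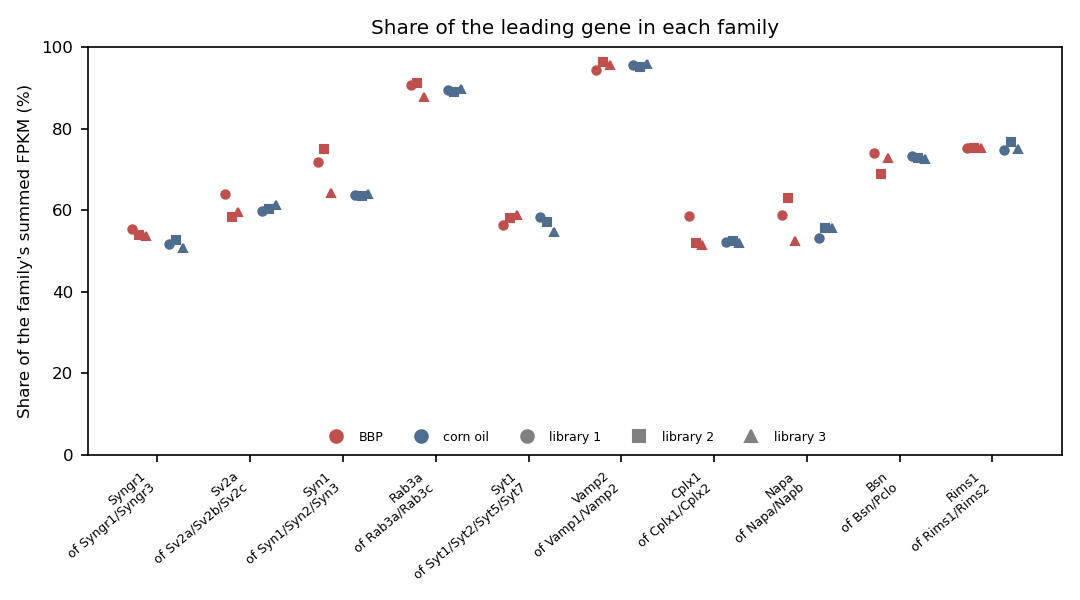
Share of the leading gene in the summed FPKM of its family (percent, vertical axis) for 10 families, with BBP libraries in red on the left and corn oil libraries in blue on the right of each pair. The Syn1 and Syngr1 shares do not overlap between the groups, and the other 8 do.

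By mean FPKM the most abundant members were Snap25 at 290.5, Vamp2 at 284.8 and Syp at 253 FPKM, and the scarcest were Syn3 at 0.269, Sv2c at 2.46 and Syt2 at 3.82 FPKM. The FPKM of a gene was scaled by the union of its annotated exons. When the CPM values were divided by the longest annotated transcript instead, Vamp2, Syp, Slc17a7 and Snap25 were the top members in that order, so the order of the top members depends on the length used. In both the bottom 3 were Syn3, Sv2c and Syt2.

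The wider release and recycling pathway was read through 84 other genes in 4 lists, all of which were tested. None passed an adjusted p of 0.05 in edgeR, and 7 had an unadjusted p under 0.05, 1 higher and 6 lower, against 1.98% of all genes higher and 1.37% lower. The count of 7 was 1 without corn oil library 2, 2 without corn oil library 1 or 3, 3 without BBP library 2, and 1 to 4 in DESeq2 and the fits on FPKM. The median log2 fold change was 0.00 over the 84 genes, 0.00 over 22 SNAREs and regulators, -0.09 over 26 vesicle proteins, transporters and synaptotagmins, 0.08 over 14 active zone genes and 0.00 over 22 recycling genes.

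Rph3a, the Rab3 effector rabphilin, had the smallest p of the genes with a positive fold change, at 71.7, 75.2 and 52.2 FPKM in BBP and 50.3, 52.4 and 51.7 FPKM in corn oil. BBP libraries 1 and 2 were high and BBP library 3 lay inside the corn oil range, and the log2 fold change was 0.40 ± 0.15 (SE), with an unadjusted p of 0.0315 and an adjusted p of 0.953 in edgeR's test. It was 0.25 without BBP library 2 (unadjusted p = 0.102 in that edgeR fit) and 0.56 without BBP library 3. Apba1, which encodes the Munc18-binding adaptor Mint1, had 22.7, 24.9 and 22.3 FPKM in BBP and 20.1, 20.8 and 20.4 FPKM in corn oil, without overlap, and its log2 fold change of 0.22 was 0.12 without BBP library 2. Git1, a GTPase-activating scaffold protein found at the active zone, had 77.1, 103 and 73.6 FPKM in BBP and 74.0, 68.5 and 66.3 FPKM in corn oil, and BBP library 2 alone was far above the rest. For Git1 the log2 fold change was 0.31 with all libraries and 0.10 without BBP library 2.

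On the lower side Lin7b, an adaptor in complex with CASK and Mint1, had 20.2, 13.5 and 18.3 FPKM in BBP and 23.3, 21.2 and 21.9 FPKM in corn oil, without overlap (log2 fold change -0.34 ± 0.13, SE, unadjusted p = 0.0289, adjusted p = 0.953 in edgeR's test). It was -0.22 without BBP library 2. Synpr, the synaptophysin relative synaptoporin of mossy fibre terminals, had 11.3, 8.96 and 13.3 FPKM in BBP and 13.9, 14.5 and 13.3 FPKM in corn oil. Its highest BBP value, 13.29 FPKM, was barely under its lowest corn oil value, 13.32 FPKM, so the groups did not overlap. The log2 fold change of Synpr was -0.30 ± 0.12 (SE), with an adjusted p of 0.953 in edgeR's test, and -0.20 without BBP library 2. Baiap3, a Munc13 relative, had 1.79, 1.16 and 2.09 FPKM in BBP and 1.897, 2.30 and 7.13 FPKM in corn oil, so corn oil library 3 carried its log2 fold change of -1.15, which was -0.31 at the nearest to 0 when a library was left out.

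Other genes of the 4 lists had the BBP library 1 pattern of Syt2 and Stx1a, and they are named here after their values were seen. Rims3, a short RIM isoform gene, had 20.1, 5.53 and 6.70 FPKM in BBP and 6.06, 6.39 and 7.83 FPKM in corn oil. Cplx3 had 8.63, 4.09 and 2.94 FPKM in BBP and 2.84, 3.33 and 4.57 FPKM in corn oil, and Syt6 had 3.69, 0.987 and 1.05 FPKM in BBP and 1.07, 1.38 and 1.56 FPKM in corn oil. In all 3 genes BBP library 1 was the highest library and corn oil library 3 the highest of its group, as they were for Stx1a. Other genes highest in BBP library 1 did not share the corn oil part. Syt12 had 7.44 FPKM in BBP library 1 and 4.86, 5.22 and 4.53 FPKM in corn oil. Stx4a had 20.7 FPKM in BBP library 1 and 15.2, 17.3 and 15.7 FPKM in corn oil. The opposite of the Stx1a pattern was also present. Doc2b had 11.9, 23.6 and 24.4 FPKM in BBP and 23.3, 23.8 and 18.1 FPKM in corn oil, and Ppfia2 had 8.11, 14.0 and 15.0 FPKM in BBP and 14.9, 14.4 and 11.3 FPKM in corn oil. On log2 CPM, BBP library 1 was above the corn oil range for 26 of the 84 genes and below it for 36, against 31.3% and 30.5% of all genes.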

How the data were processed

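Hippocampal polyA RNA of 6 libraries, 3 BBP and 3 corn oil, had been read as paired ends from dUTP libraries whose adapters carried molecular identifiers, per the labels' protocols. Among the tools listed, without their roles, in the submitters' processing notes are HISAT2 2.2.1 and StringTie 2.1.6, cutadapt 1.9 and UMI-tools, and the build is mm10. Per the file headers, the deposited table holds estimated counts and FPKM for each gene and library. The deposited estimated counts are whole numbers, and about 4 of them were assumed to stand for 1 fragment, so the totals would equal 15619401 to 17105590 fragments a library. The FPKM values were taken as deposited by the authors. For 95.9% of 13256 genes they implied, to within 1% of a common factor, the union of a gene's exons in GENCODE M21 as its length. How the counts were made and with which strand setting is not given in the sources used here. Of 31838 genes, 31739 were found in GENCODE M21.

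The main test was the quasi-likelihood test of edgeR 4.0.16 (R 4.3.3) on the deposited estimated counts, with TMM scaling, the filterByExpr filter, no covariate, and a Benjamini-Hochberg threshold of 0.05 over 20428 genes. The biological coefficient of variation was 0.225. Deviations are log2 CPM (prior count 2, TMM) minus the corn oil mean. Standard errors were derived from the fold change and its F value. Family shares were compared by two-sided exact permutation. Alternatives were DESeq2 1.42.0, median-of-ratios size factors, no filter, counts divided by 4, no mitochondrial genome, a replicate block, limma 3.58.1 on log2(FPKM + 1) or log2(FPKM + 0.1) at a mean FPKM of at least 1 or with no filter, and each library left out. The deposited estimated counts entered the edgeR and DESeq2 fits as whole numbers, rounded again only after division by 4.

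On simulated data with 50 of 20428 genes changed at each fold, the edgeR fit found 16 of those changed 1.5-fold and 20 of those changed 2-fold. It found 40 with a 4-fold and 45 with an 8-fold change, and it also called 12 unchanged genes. Members and lists were chosen with earlier results of these data known. Values in every library were given by rule for members with no overlap between groups, the most abundant member of each of 6 roles and the 4 with the widest range, and for the 3 other pathway genes of smallest p in each direction, and for further members after their values were seen. Tables were handled with pandas 2.3.3 and figures drawn with matplotlib 3.10.9 in Python 3.11.15.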

Additional observations from a re-analysis of the deposited data

How the results depend on the processing

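No alternative gave a member or another pathway gene an adjusted p under 0.05. Over all genes, edgeR called 0, DESeq2 called 3 (Vcp-rs, Gm2004 and Gm2274) and fits without 1 library called 0 to 3 (3 without BBP library 1 and 1 without corn oil library 2). In edgeR, members at an unadjusted p under 0.05 numbered 0, then 1 with no filter on low counts (Syp) and 0 to 5 as libraries were left out (Syn3 without BBP library 1, Syp, Rims1 and Rims2 without BBP library 2, and Syn2, Snap25, Napb, Cplx1 and Sv2c without BBP library 3). The count of 7 other pathway genes was 4 with DESeq2, 2 in both limma fits with a pseudocount of 0.1 or 1, 1 in limma with no filter and 1 to 10 as libraries were left out. The median of the members, 0.07, was 0.0326 without BBP library 2 and ranged from 0.0326 to 0.0924 as libraries were left out. Over all genes the 685 at an unadjusted p under 0.05 were 1475 without BBP library 1, 1530 without BBP library 3, 393 without corn oil library 1, 392 and 396 in limma with the filter and 1068 without it.

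For the 30 members and 6 named pathway genes, 195 of 216 fold changes with a library left out and 316 of 322 under the other settings kept their direction, and in all of these none passed the threshold. In the limma fits Rab3a was -0.0040 (all 3) and Bsn -0.0060 with a pseudocount of 0.1 and -0.0055 in the other fits. Log2 fold changes that changed sign with a library left out ranged from -0.269 to 0.446 for Stx1a, -0.0308 to 0.621 for Syt2, -0.0985 to 0.0905 for Syngr1, -0.0754 to 0.0567 for Sv2a, -0.117 to 0.0134 for Sv2b, -0.102 to 0.0809 for Slc17a7, -0.0640 to 0.0796 for Rab3a, -0.173 to 0.0144 for Rab3c, -0.0843 to 0.0231 for Syt5, -0.0176 to 0.193 for Vamp1, -0.0198 to 0.161 for Vamp2, -0.0533 to 0.168 for Cplx2, -0.119 to 0.102 for Nsf, -0.0421 to 0.117 for Napa and -0.0351 to 0.0729 for Bsn. Differences in family share that changed sign ranged from -1.63 to 1.13 points for Sv2a, -0.239 to 1.54 for Rab3a, -0.470 to 0.425 for Vamp2, -0.417 to 3.15 for Cplx1, -2.07 to 0.496 for Bsn and -0.686 to 0.240 for Rims1. The cause was not tested.

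Same-numbered libraries did not deviate together (correlations of -0.0771, 0.0756 and -0.102), and BBP library 2 alone correlated best with the corn oil library of its own number. No pairing by number was seen, but deviations from means of 3 libraries cannot exclude a shared batch. With the library number as a block, 0 genes were called, 494 had an unadjusted p under 0.05, the members numbered 0 and the other pathway genes 3. With 3 libraries a group, 16 of 50 simulated 1.5-fold differences passed edgeR's threshold. The simulated data also held 4-fold and 8-fold changes, which ease the adjusted threshold, and gave both groups the same dispersion for a gene. In the deposited data the median SD of log2 CPM over all genes was 0.243 in BBP and 0.144 in corn oil. The simulated rates therefore do not carry over directly to these libraries. The changed genes were drawn at random from all genes tested, whose median standard error was 0.18, against 0.11 for the members. The rate for genes like the members was not simulated.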
